A study of Parascaris univalens with 7 samples.

Results

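The genome of Parascaris univalens, the horse roundworm, held 104 genes annotated as zinc finger proteins among the 15027 genes in the deposited table. The members were the genes whose annotation read "zinc finger protein" or "zinc c2h2" and named no homeobox or GATA factor. Of these, 16 lay in DNA that somatic cells discard, called eliminated below, and 88 lay in DNA that all cells keep, called retained. Of each gene's transcripts, the one with the highest level averaged over tissues stands for it. Another 3 genes had a matching text only on a transcript that does not represent them, and they are not members.

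Expression was measured once in each of 5 tissues of untreated worms, from a wild-type strain of North American origin: testis, labelled male germline, embryo, ovary, labelled female germline, intestine, and carcass, the body left after dissection. Embryo, intestine and carcass all bear the label male somatic, and no embryonic stage is given relative to the loss of DNA. Another 2 libraries, made from mixed samples, marked transcript 5′ ends and have no levels in the table. Levels are RPKM, reads scaled by transcript length and library size, so they can be compared between genes. With 1 library per tissue there is no replicate error, no test between tissues was possible, and every difference below is one between these libraries. In bulk tissue, fewer cells of a type and less RNA per cell cannot be told apart.

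Zinc fingers are small protein folds held together by a zinc ion, and those of the C2H2 kind usually occur in rows that read a DNA sequence base by base. KRAB and SCAN are domains known from vertebrate zinc finger proteins, where KRAB recruits repressors to DNA and SCAN joins proteins in pairs. The names here were carried over from other animals by similarity and do not show that a worm protein holds the named domain. In programmed DNA elimination, the somatic precursors of the early embryo break their chromosomes and lose the pieces between and beyond the parts they keep, while the germline keeps the whole genome. In the adult, the lost genes are left only in germline cells.

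Library depth, worked out from the steps between low values, ranged from 11920000 reads in embryo to 31780000 in ovary. The 20 highest genes took 52.9% of the summed RPKM in embryo and 24.0% to 37.8% in the other tissues. Marker genes were checked against the tissue labels. All 11 major sperm protein genes were highest in testis, with a summed level of 11989.3 RPKM there, 55.9 in embryo, 7.4 in ovary, 324.3 in intestine and 131.7 in carcass. The summed level of 16 ovarian genes was highest in ovary (36172.0 RPKM), and 14 of the 16 peaked there. The intestinal list had its highest sum in intestine (5749.0 RPKM), but 7 of its 26 genes peaked there. The collagen and troponin list had its highest sum in carcass (41234.0 RPKM), but 49 of its 152 genes peaked there. Homeobox genes summed to 685.4 RPKM in embryo, the highest of the tissues, although 29 of 69 had their own peak there.

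A larger share of the zinc finger genes than of all genes lay in eliminated DNA, 15.4% of the members (16 of 104) and 6.55% of all genes (985 of 15027). They were not one kind. All 7 genes annotated "Zinc finger protein with KRAB and SCAN domains 5" were eliminated, and no retained gene carried that text. Of the 20 genes annotated as zinc C2H2 type, 6 were eliminated, as were 2 of the 26 with no further name and 1 of the 2 annotated zinc finger protein 345. None of the 16 members named after another factor, such as lin-13, rotund or Xfin, was eliminated.

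The 3 highest members in testis were KRAB and SCAN type genes. PgE087_g001 had 410.1 RPKM in testis, 0.7 in embryo, 0.0 in ovary, 9.2 in intestine and 3.9 in carcass. The exact Poisson 95% interval of the testis value, which covers counting error only, was 400 to 420 RPKM. PgE087_g003 had 321.5 RPKM in testis, 0.2 in embryo, 0.4 in ovary, 5.0 in intestine and 2.4 in carcass. Both genes lie on 1 scaffold, PgE087, at positions 1 to 15678 and 18050 to 20113 of its plus strand, and testis stood far above every other tissue in both.

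The other KRAB and SCAN type gene there, PgE087_g002, had 185.2 RPKM in testis, 0.2 in embryo, 0.0 in ovary, 4.1 in intestine and 1.8 in carcass. It lies at 18050 to 20077 on the minus strand, wholly inside PgE087_g003. No source used here says if reads were assigned by strand, so the reads of these overlapping genes cannot be told apart. As listed, the testis value of PgE087_g002 was 809-fold the level that 3 reads would give in ovary. Since PgE087_g003 had 0.4 RPKM in ovary over the same span, this ratio is no bound for PgE087_g002 alone. No such ratio is given for PgE087_g001 as a gene, since its other transcript was seen in ovary. That transcript had 119.3 RPKM in testis, 1.2 in embryo, 3.2 in ovary, 1.9 in intestine and 1.2 in carcass. The difference of testis over ovary was 8.68 for the representing transcript of PgE087_g001, 4.84 for the other and 6.98 with both summed, on the log2(RPKM + 1) scale.

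The pair on scaffold PgE007 also peaked in testis, at lower levels. PgE007_g003 had 81.8 RPKM in testis, 0.0 in embryo and 0.3 in each of ovary, intestine and carcass. PgE007_g002 had 39.0 RPKM in testis, 1.9 in embryo, 2.1 in ovary, 1.0 in intestine and 0.3 in carcass. The differences of testis over ovary were 5.99 and 3.69 on the log2(RPKM + 1) scale.

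The remaining KRAB and SCAN type genes were high elsewhere. PgE107_g003 had 16.0 RPKM in testis, 42.3 in embryo, 33.2 in ovary and 0.1 in each of intestine and carcass. PgE423_g001 had 3.7 RPKM in testis, 18.5 in embryo, 11.9 in ovary and 0.0 in intestine and carcass. The same annotation text thus covered 5 genes with a testis peak and 2 with an embryo peak, with ovary next. In PgE107_g003 the interval of the embryo value, 37.9 to 47.2 RPKM, lay above that of the ovary value, 30.8 to 35.8 RPKM. The difference of embryo over ovary was 0.34 on the log2(RPKM + 1) scale.

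**Figure D1:**
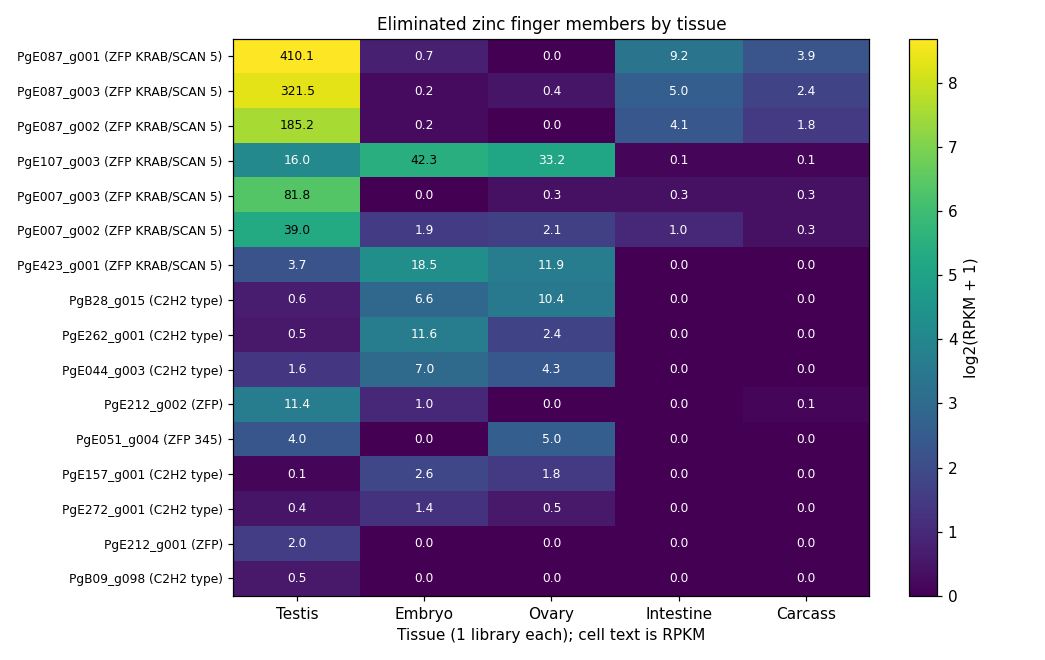
RPKM of the 16 eliminated zinc finger genes (rows) in the 5 tissues (columns, 1 library each); colour is log2(RPKM + 1) and the number in each cell is RPKM. The testis column holds 410.1 RPKM at its highest, while intestine and carcass do not pass 9.2 RPKM.

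The eliminated C2H2 type genes were low in testis. PgE262_g001, a single exon with no strand, had 0.5 RPKM in testis, 11.6 in embryo and 2.4 in ovary. PgB28_g015 had 0.6 RPKM in testis, 6.6 in embryo and 10.4 in ovary. PgE044_g003 had 1.6 RPKM in testis, 7.0 in embryo and 4.3 in ovary. These 3 genes were listed at 0.0 in intestine and carcass. Their embryo values were 51.8-fold, 69.0-fold and 72.1-fold the level of 3 reads in intestine, leaving the counting error of the embryo values aside.

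The other eliminated C2H2 type genes did not pass 2.6 RPKM in any tissue. PgE157_g001 had 0.1 RPKM in testis, 2.6 in embryo and 1.8 in ovary. PgE272_g001 had 0.4 RPKM in testis, 1.4 in embryo and 0.5 in ovary, and PgB09_g098 had 0.5 in testis with 0.0 in embryo and ovary. In intestine and carcass all 3 were listed at 0.0. PgB09_g098 overlaps PgB09_g099 on the opposite strand, an eliminated gene annotated as hypothetical with 0.9 RPKM in testis, 14.7 in embryo and 7.8 in ovary.

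The last 3 eliminated members had no domain in their names. PgE212_g002 had 11.4 RPKM in testis, 1.0 in embryo, 0.0 in ovary and intestine and 0.1 in carcass. Its neighbour PgE212_g001, a single exon with no strand, had 2.0 RPKM in testis and 0.0 in the other tissues. PgE051_g004, annotated zinc finger protein 345, had 4.0 RPKM in testis, 0.0 in embryo, 5.0 in ovary and 0.0 in intestine and carcass. Its transcript is 246 nt long, and in embryo 3 reads would have given 1.02 RPKM, so a low level there was not detectable.

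Adult somatic tissue held little of these transcripts. Of the 16 eliminated members, 9 (56.2%) were listed at 0.0 in both intestine and carcass, and 12 were at 0.3 RPKM or below in both. The share listed at 0.0 in both was 24.5% of all eliminated genes, 12.5% of the retained members (11 of 88) and 10.3% of all retained genes. These shares were not matched for level, and with values written to 1 decimal a low gene is more easily listed at 0.0. The median testis level was 3.85 RPKM for eliminated members and 13.6 for all eliminated genes. The members above 0.3 RPKM in an adult somatic tissue were the 3 genes on PgE087 and PgE007_g002, which were among the 5 highest members in testis of this class. For the 3 genes on PgE087 the intestine level was 1.56% to 2.24% of the testis level, and the carcass level 0.747% to 0.972%. Major sperm protein genes with at least 100 RPKM in testis (5 genes) had a median of 2.63% of their testis level in intestine and 1.08% in carcass. All eliminated genes with at least 100 RPKM in testis (138 genes) had medians of 2.18% and 1.13%. The part of testis RNA in the intestine and carcass values was not tested.

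Across the eliminated members, 7 of the 15 that reached 1 RPKM anywhere peaked in testis, 6 in embryo, 2 in ovary and none in intestine or carcass. Among all eliminated genes, 66.1% peaked in testis and 12.2% in embryo. None of the eliminated members and 49 of the 88 retained members (55.7%) had at least 1 RPKM in all 5 tissues. Over all eliminated genes that share was 11.1%, and over all retained genes 47.1%.

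A call below means 4-fold or more on the log2(RPKM + 1) scale and a level of 5 RPKM or more where it was highest. Where a side holds 2 tissues, its lower tissue is set against the higher tissue of the other side. Between testis and ovary, 6 of 16 eliminated members were called higher in testis and 1 lower, against 11.6% of all genes higher and 15.9% lower. The 6 were the 5 KRAB and SCAN type genes with a testis peak and PgE212_g002, and the 1 was PgB28_g015. Over all 985 eliminated genes 44.8% were called higher in testis and 7.21% lower, and the members' 6 of 16 (37.5%) stands beside that share with no test.

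Retained members leaned the other way, as did retained genes in general. In testis 3 of 88 (3.41%) were called higher than in ovary and 21 (23.9%) lower. Over all retained genes the shares were 9.25% higher and 16.5% lower. The median difference of testis over ovary was 0.24 for eliminated members, −1.02 for retained members and −0.56 for all genes, on the log2(RPKM + 1) scale. Of the 16 eliminated members 8 were above 0 and 8 below, so the sign of their median is not firm. For all genes that reached 1 RPKM anywhere the median was −0.69. These medians moved with the scaling of the libraries. Median-of-ratios scaling moved the median of all those genes to 0.06 and of retained members to −0.08, and upper-quartile scaling moved them to −0.13 and −0.41. The split of all 104 members, 9 higher and 22 lower as deposited, became 10 and 8 with median-of-ratios scaling and 9 and 10 with upper-quartile scaling. The 6 eliminated members called higher in testis numbered 6 under each.

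**Figure D2:**
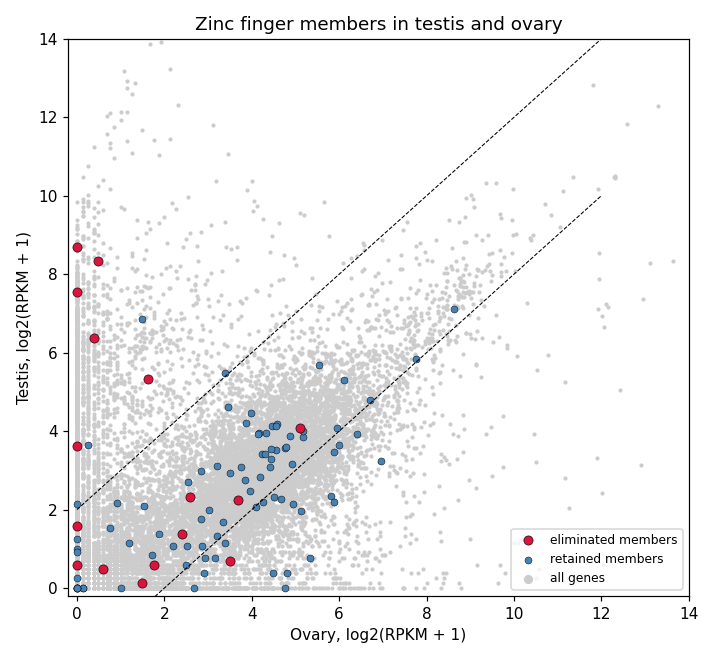
Testis level (vertical) against ovary level (horizontal), both log2(RPKM + 1), for eliminated members (red), retained members (blue) and all 15027 genes (grey), with dashed lines at 4-fold differences. The 6 eliminated members called higher in testis lie above the upper line with ovary values of at most 2.1 RPKM, and the 21 retained members called lower in testis lie below the lower line.

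The 3 retained members higher in testis were unlike each other. PgR075_g007, annotated zinc finger protein 430, had 114.2 RPKM in testis, 3.8 in embryo, 1.8 in ovary, 2.0 in intestine and 0.4 in carcass. Among retained members it was second in testis, and its difference of testis over ovary was 5.36 on the log2(RPKM + 1) scale. PgR153_g005, annotated lin-13, a chromatin-associated repressor of vulval fates in Caenorhabditis elegans, had 43.9 RPKM in testis, 13.1 in embryo, 9.5 in ovary, 8.6 in intestine and 1.5 in carcass. PgB14X_g027 had 11.5 RPKM in testis and 0.2 in ovary, but its peak was in intestine, at 65.5 RPKM.

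Retained members lower in testis than in ovary included several with a numbered name. PgR041_g061, zinc finger protein 484, had 0.0 RPKM in testis, 13.2 in embryo, 26.3 in ovary, 0.0 in intestine and 1.6 in carcass. PgR023_g033, zinc finger protein 236, had 0.3 RPKM in testis, 5.4 in embryo, 26.8 in ovary, 5.9 in intestine and 2.6 in carcass. PgB01_g005, zinc finger protein 28, had 0.3 RPKM in testis, 10.8 in embryo, 21.5 in ovary, 2.2 in intestine and 1.4 in carcass. All 3 peaked in ovary, with embryo or intestine next.

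PgR080_g020, of C2H2 type, had 0.7 RPKM in testis, 5.1 in embryo, 39.4 in ovary, 0.7 in intestine and 3.0 in carcass. PgR014X_g030 is annotated rotund, a factor that patterns legs and wings in Drosophila. It had 8.5 RPKM in testis, 83.1 in embryo, 123.9 in ovary, 57.8 in intestine and 21.1 in carcass. Testis was the lowest tissue for rotund, and the difference of testis over ovary was −3.72 on the log2(RPKM + 1) scale.

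Few members separated both gonads from both adult somatic tissues. Of the eliminated members 1 of 16 was called higher in both gonads, and of the retained members 2 of 88, against 3.36% of all genes. No member was called lower, against 1.7% of all genes. The eliminated one was PgE107_g003. PgR037_g087 had 13.3 RPKM in testis, 20.5 in embryo, 35.3 in ovary, 0.5 in intestine and 0.0 in carcass. PgB03_g133, annotated zinc finger protein 1, had 8.0 RPKM in testis, 27.3 in embryo, 29.1 in ovary, 0.5 in intestine and 0.4 in carcass. Both retained genes were high in gonads and embryo and near 0 in the adult body, although their DNA is kept. Among all eliminated genes 17.6% were called higher in both gonads. The KRAB and SCAN type genes with a testis peak did not meet the rule, since the transcripts that represent them had at most 2.1 RPKM in ovary.

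**Figure D3:**
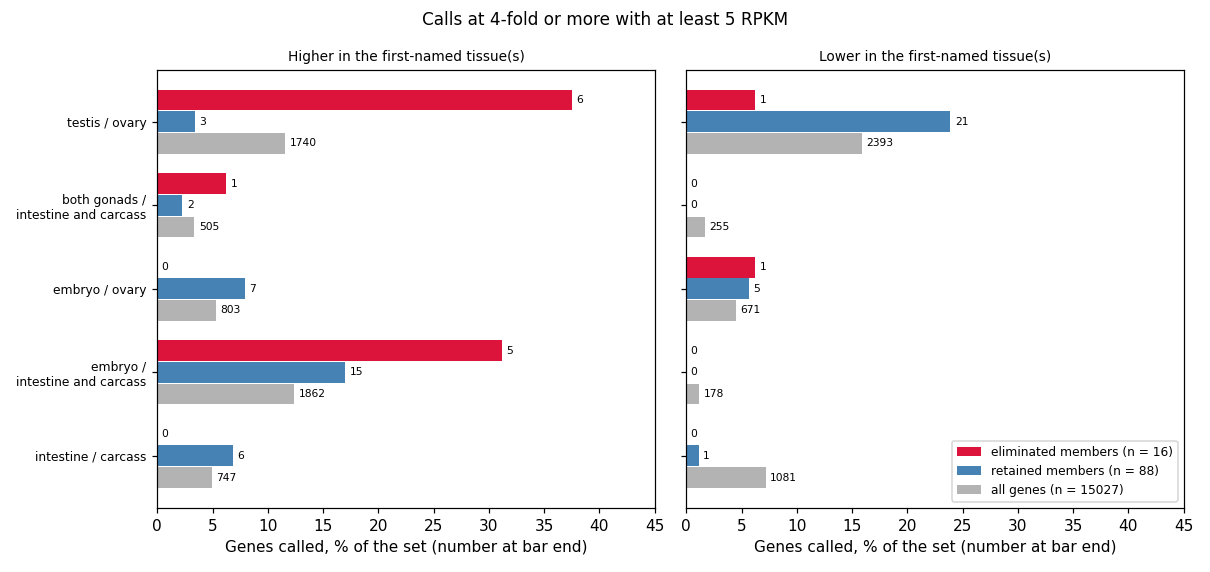
Share of genes called higher (left) or lower (right) by 4-fold or more, given 5 RPKM or more on the higher side, in each of the 5 comparisons, for eliminated members (red, 16 genes), retained members (blue, 88 genes) and all 15027 genes (grey); the number at each bar is the count of genes. Eliminated members reach 6 of 16 for testis over ovary, where retained members reach 3 of 88.

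Embryo was set against ovary, the tissue in which the eggs form. No eliminated member was called higher in embryo and 1 was lower, PgE051_g004. Among retained members 7 of 88 were higher and 5 lower, against 5.34% of all genes higher and 4.47% lower. The split of all members, 7 higher and 6 lower, was 4 and 2 with median-of-ratios scaling and 6 and 2 with upper-quartile scaling.

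The retained members with the largest differences of embryo over ovary were near 0 elsewhere. PgB08_g089 had 0.0 RPKM in testis, 33.0 in embryo, 0.1 in ovary, 0.1 in intestine and 0.0 in carcass, and its neighbour PgB08_g090 had 31.1 RPKM in embryo and 0.0 in the other tissues. The embryo value of PgB08_g090 was 126-fold the level of 3 reads in ovary, leaving its own counting error aside. The genes lie 2212 nt apart on 1 strand of scaffold PgB08, and their levels were nearly equal. How reads matching several loci were counted is not given in the sources used here, so shared reads cannot be told apart.

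The pair annotated ZIC 3, a vertebrate factor of left-right asymmetry and early neural development, also peaked in embryo. PgR002_g206 had 10.9 RPKM in embryo and 0.0 in the other tissues, with an interval of 6.57 to 17.0 RPKM, since the transcript is 146 nt of 1 exon. PgR002_g207 had 1.0 RPKM in testis, 6.6 in embryo and 0.0 in ovary, intestine and carcass. PgR002_g136, zinc finger protein 58, had 0.0 RPKM in testis, 5.5 in embryo, 0.0 in ovary and intestine and 1.0 in carcass. PgR008_g206 is annotated ncl-1, which limits nucleolus size in Caenorhabditis elegans. It had 7.6 RPKM in testis, 37.6 in embryo, 8.2 in ovary, 27.4 in intestine and 8.0 in carcass. Of the 7, ncl-1 and PgB14X_g027 alone had more than 1.0 RPKM in each of testis, intestine and carcass.

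All 5 retained members lower in embryo than in ovary were C2H2 type or zinc finger protein 236. PgR003_g102 had 11.5 RPKM in testis, 9.9 in embryo, 63.3 in ovary, 12.9 in intestine and 9.6 in carcass. PgR003_g040 had 1.2 RPKM in testis, 1.0 in embryo, 9.5 in ovary and 0.0 in intestine and carcass, and its neighbour PgR003_g041 had 0.3, 0.2, 6.5, 3.2 and 0.0 RPKM in the same order of tissues. PgR080_g020 and PgR023_g033, given above, were the others. The counts of retained C2H2 type genes were 4 lower and none higher of 14, beside 4.48% lower and 5.47% higher of all retained genes. Under median-of-ratios scaling PgR003_g040, PgR003_g041 and PgR023_g033 fell short of the call, at −1.86, −1.99 and −1.71 on the log2(RPKM + 1) scale. In PgR003_g040 and PgR003_g041 the call also depended on the transcript, since not every transcript was called lower.

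Embryo stood above the adult body for many members. Of the eliminated members 5 of 16 were called higher in embryo than in both intestine and carcass, and of the retained members 15 of 88, against 12.4% of all genes. No member was called lower, against 1.18% of all genes, although median-of-ratios and upper-quartile scaling each called 1 eliminated member lower. Among all eliminated genes 22.4% were higher in embryo. The 5 eliminated genes were PgE107_g003, PgE423_g001, PgE262_g001, PgB28_g015 and PgE044_g003. Without members inside an opposite-strand gene or with no strand, such as PgE262_g001, 4 eliminated genes were called. Besides PgB08_g089 and PgB08_g090, the retained genes with the largest differences were PgB03_g133, PgR037_g087 and PgR010_g111. PgR010_g111 had 4.1 RPKM in testis, 22.0 in embryo, 54.9 in ovary, 0.1 in intestine and 0.3 in carcass. PgR037_g087 and PgR010_g111 were higher in ovary than in embryo. In PgB03_g133 the intervals overlapped, at 25.4 to 29.3 RPKM in embryo and 27.9 to 30.4 in ovary. With such ovary levels, the comparison with the adult body alone does not separate transcripts carried in the egg from those made in the embryo.

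Between intestine and carcass no eliminated member was called in either direction, and 6 retained members were called higher in intestine and 1 lower, against 4.97% and 7.19% of all genes. The direction of this split turned with scaling: of all members 2 were higher and 3 lower with median-of-ratios scaling, and 3 and 3 with upper-quartile scaling. PgB14X_g027 led, with 65.5 RPKM in intestine and 6.1 in carcass, and each of its 6 transcripts was called higher. PgR023_g066 had 10.4 RPKM in intestine and 1.4 in carcass, PgR051X_g015, zinc finger protein 26, had 5.7 and 0.5, PgB20_g033 had 10.1 and 1.5, and PgR007_g032 had 8.7 and 1.2. As deposited, these 4 were higher in embryo and in at least 1 gonad than in intestine. With median-of-ratios scaling, whose divisors were 1.44 in embryo, 1.84 in ovary and 0.833 in intestine, PgR023_g066 and PgR051X_g015 lose that order. The sixth was PgR010_g194, annotated sfp1, with 14.1 and 2.7 RPKM. The gene lower in intestine, PgR080_g019, had 0.0 RPKM there and 14.3 in carcass. It overlaps PgR080_g020 on the opposite strand, which had 0.7 RPKM in intestine and 3.0 in carcass. PgR102_g033, annotated unc-98, a protein of the muscle attachment sites in Caenorhabditis elegans, had 5.6 RPKM in intestine and 19.4 in carcass, its highest tissue, and did not reach 4-fold.

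**Figure D4:**
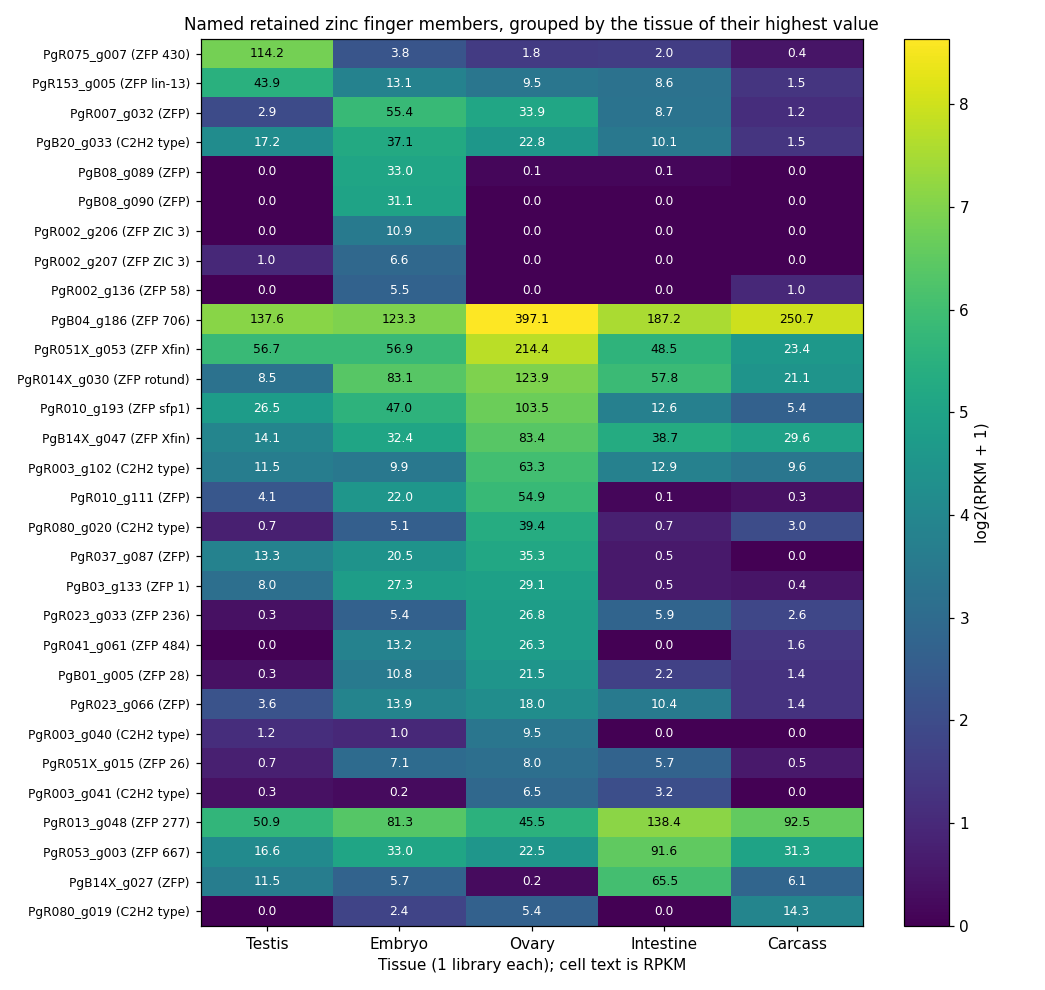
RPKM of 30 named retained members (rows, grouped by the tissue of their highest value) in the 5 tissues (columns, 1 library each); colour is log2(RPKM + 1) and the number in each cell is RPKM. PgB08_g089 and PgB08_g090 are seen in embryo alone at above 0.1 RPKM, while zinc finger protein 706 (PgB04_g186) is at 123.3 RPKM or more in every tissue.

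Some retained members were high everywhere. PgB04_g186, zinc finger protein 706, was the highest retained member in each of the 5 tissues, with 137.6 RPKM in testis, 123.3 in embryo, 397.1 in ovary, 187.2 in intestine and 250.7 in carcass. PgR013_g048, zinc finger protein 277, had 50.9 RPKM in testis, 81.3 in embryo, 45.5 in ovary, 138.4 in intestine and 92.5 in carcass. PgR051X_g053, annotated Xfin after a Xenopus protein with many fingers, had 56.7 RPKM in testis, 56.9 in embryo, 214.4 in ovary, 48.5 in intestine and 23.4 in carcass. Its lowest tissue was carcass and its highest ovary, and like PgR053_g003 it overlaps a gene on the opposite strand.

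PgR053_g003, zinc finger protein 667, had 16.6 RPKM in testis, 33.0 in embryo, 22.5 in ovary, 91.6 in intestine and 31.3 in carcass. PgR010_g193, annotated sfp1 after a yeast regulator of ribosomal protein genes, had 26.5 RPKM in testis, 47.0 in embryo, 103.5 in ovary, 12.6 in intestine and 5.4 in carcass. The second Xfin gene, PgB14X_g047, had 14.1 RPKM in testis, 32.4 in embryo, 83.4 in ovary, 38.7 in intestine and 29.6 in carcass. The sfp1 and Xfin genes peaked in ovary.

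Most members were at moderate or low levels. The median of the eliminated members was 3.85 RPKM in testis, 1.2 in embryo, 1.15 in ovary and 0.0 in intestine and carcass. For retained members it was 3.9 RPKM in testis, 9.7 in embryo, 13.5 in ovary, 4.65 in intestine and 1.95 in carcass. The medians of all retained genes were 4.1, 7.0, 7.7, 3.0 and 2.5 RPKM in the same order. Of the retained members 39 (44.3%) peaked in ovary, 27 (30.7%) in embryo, 10 in testis, 9 in intestine and 3 in carcass. PgR023_g030, tied at 24.5 RPKM in embryo and ovary, was counted under embryo. Among all retained genes that reached 1 RPKM anywhere, 38.4% peaked in ovary and 21.3% in embryo. Their shares in testis, intestine and carcass were larger than those of the members. The effect of scaling on these peaks was not tested. In every tissue 13 retained members stayed below 5 RPKM, as did 4 eliminated members.

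Members named after other known regulators had low to moderate levels. The 3 genes with a PR domain name, after mammalian factors of germ cell specification, had at most 12.4 RPKM, and PgR038X_g083, PR domain 1, had 0.7 RPKM in testis, 3.7 in embryo, 6.6 in ovary, 0.1 in intestine and 0.6 in carcass. PgB01_g116, annotated sdc-1, which acts in sex determination and dosage compensation in Caenorhabditis elegans, had 5.5 RPKM in testis, 6.4 in embryo, 4.8 in ovary, 5.1 in intestine and 0.8 in carcass. It was not called in any comparison. The Gfi-1 pair, named after a vertebrate repressor of blood cell genes, had at most 4.3 RPKM in embryo and 3.4 in testis, and 0.0 in ovary, intestine and carcass. PgR083X_g030, annotated Elbow, which acts in tracheal and limb patterning in Drosophila, had 10.0 RPKM in testis, 47.1 in embryo, 57.9 in ovary, 29.2 in intestine and 9.3 in carcass.

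Where eliminated and retained members shared an annotation text, the eliminated ones had the lower medians in the adult body. The 6 eliminated C2H2 type genes had a median of 0.5 RPKM in testis, 4.6 in embryo, 2.1 in ovary and 0.0 in intestine and carcass. For the 14 retained C2H2 type genes the medians were 7.1 RPKM in testis, 8.65 in embryo, 18.75 in ovary, 4.4 in intestine and 2.75 in carcass. The highest retained C2H2 type genes were PgR098_g015, with 68.5 RPKM in ovary, PgR003_g102, with 63.3 in ovary, and PgR080_g020, with 39.4 in ovary. The retained zinc finger protein 345, PgR066_g057, had 13.7 RPKM in testis, 21.9 in embryo, 28.3 in ovary, 6.8 in intestine and 1.9 in carcass, against the lower values of the eliminated PgE051_g004 given above. The 2 eliminated genes with no further name had medians of 6.7 RPKM in testis, 0.5 in embryo, 0.0 in ovary and intestine and 0.05 in carcass. For the 24 retained genes with no further name the medians were 3.1, 9.95, 6.25, 1.1 and 0.8 RPKM in the same order. In testis these eliminated genes thus had the higher median. All these groups are small and were compared by description only.

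Some members with the same annotation lay near each other. The share of such pairs over all genes was not computed, and several pairs share only a general text such as "zinc finger protein". Within 5 genes of each other on a scaffold there were 18 pairs of members with the same text, which took in 33 of the 104 members and 7 of the 16 eliminated ones. In 12 pairs both genes peaked in the same tissue, and in 10 pairs they stayed within 2 on the log2(RPKM + 1) scale in every tissue. In 4 pairs the spans overlapped, so that reads may have been counted at both. The zinc finger protein 430 pair differed most in testis: PgR075_g007 had 114.2 RPKM there and PgR075_g008, 3309 nt downstream, 6.1, while in ovary PgR075_g007 had 1.8 and PgR075_g008 had 17.2. The zinc finger protein 706 pair had 397.1 RPKM (PgB04_g186) and 20.9 RPKM (PgB04_g187) in ovary. The sfp1 pair, PgR010_g193 and PgR010_g194, overlaps on 1 strand and had 103.5 and 60.9 RPKM in ovary.

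**Figure D5:**
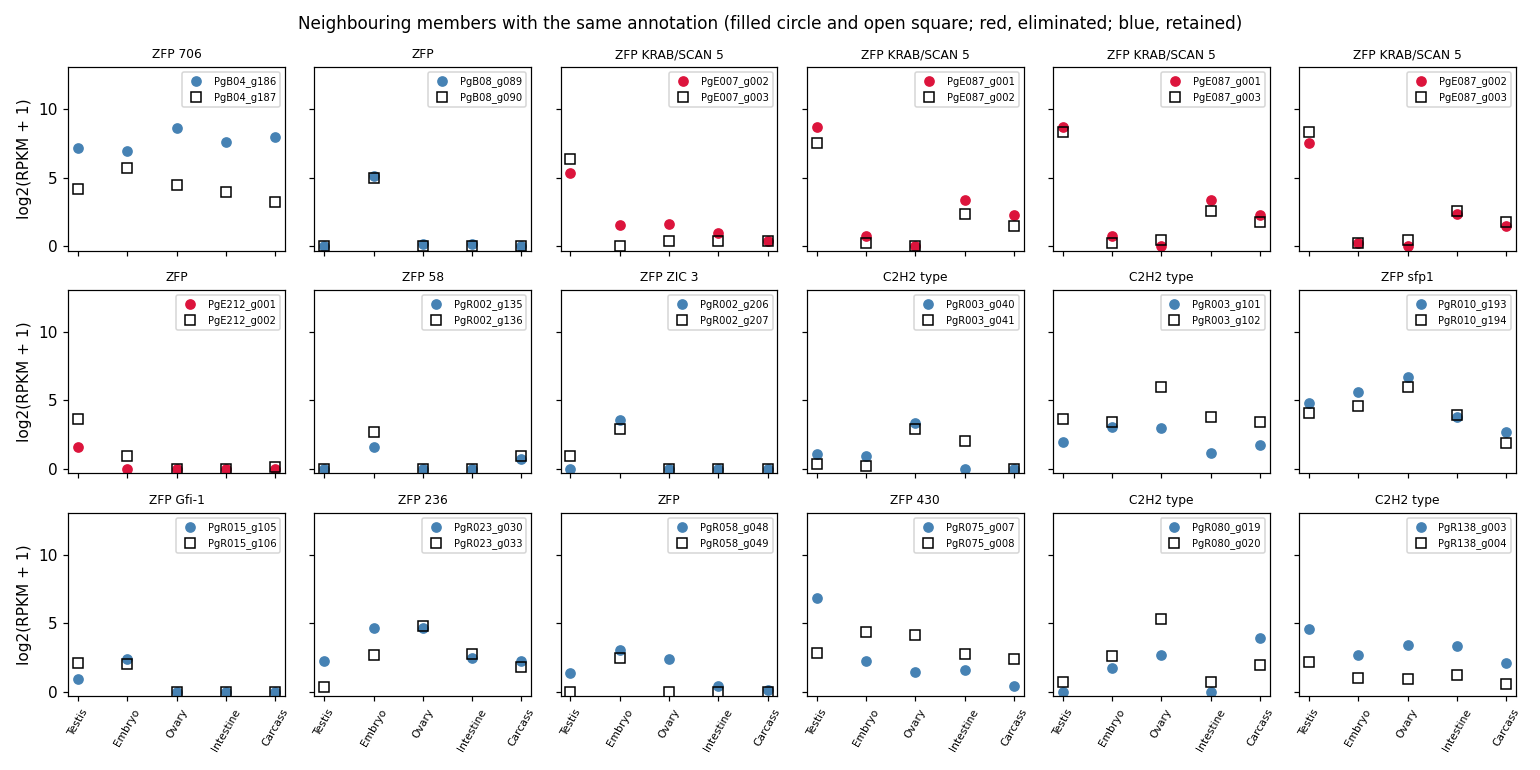
Levels, log2(RPKM + 1) (vertical), in the 5 tissues (horizontal) for the 18 pairs of neighbouring members with the same annotation; filled circles are the first gene of a pair, in red where eliminated and blue where retained, and open squares the second. Both members of the pairs on PgE007 and PgE087 peak in testis, whereas PgR075_g007 peaks in testis at 114.2 RPKM and PgR075_g008 in embryo at 19.6 RPKM.

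Eliminated members mostly stood on scaffolds with few genes. They lay on 12 scaffolds, and 14 of the 16 on scaffolds named PgE, on which every gene is eliminated. Of all 985 eliminated genes, 883 lay on PgE scaffolds. The other 2 members lay among the last genes of scaffolds with more genes. PgB09_g098 is gene 98 of 100 on PgB09, of which 3 are eliminated, and PgB28_g015 is the last of 15 genes on PgB28, of which 2 are eliminated. The meaning of the scaffold names is not given in the sources used here. Eliminated members had a median transcript length of 730 nt and 3 exons, and retained members 1491 nt and 7 exons. Over all genes the medians were 1113 nt and 4 exons for eliminated genes and 1339 nt and 6 exons for retained ones.

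These 12 scaffolds carried 15 further eliminated genes, several with their peak in testis and others in ovary or embryo. Among them PgE044_g001, annotated pantothenate kinase 4, was listed at 0.0 in every tissue. Neighbours did not always share a profile. PgE107_g003, high in embryo and ovary, lies beside PgE107_g001, annotated as a transient receptor potential channel, which had 74.8 RPKM in testis, 3.0 in embryo, 0.2 in ovary, 3.7 in intestine and 0.4 in carcass. On PgE262 the member PgE262_g001 lies beside a gene annotated argonaute alg-6, a small RNA binding protein, which had 16.6 RPKM in testis, 11.5 in embryo, 39.0 in ovary, 1.0 in intestine and 0.0 in carcass. Both neighbours were picked after their values were seen.

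Marks from the 5′ libraries were rare on eliminated members. A spliced leader, a short RNA that nematodes join to the front of many messages, was marked on 0 of 16 eliminated and 30 of 88 retained members (34.1%). The share was 12.8% of all eliminated genes and 33.4% of all genes. The mark of the TeloPrime library, which captures capped ends, was on 1 of 16 eliminated members, PgE087_g001, and on 8 of 88 retained ones (9.09%). It was on 17.3% of all eliminated genes and 14.2% of all genes. Of the retained members in the middle range of level, a summed RPKM of 12.8 to 77.8, 42.6% had a spliced leader mark, beside 41.8% of all retained genes in that range. Of the 12 eliminated members that reached 5 RPKM anywhere, 0 had a spliced leader mark, beside 15.4% of such eliminated genes overall. The labels do not name the tissues in the mixed sample.

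Other transcripts of a gene gave the same call in most cases. Of the 60 members with more than 1 transcript, all transcripts had the same call in 55 for testis over ovary, 60 for both gonads over both adult somatic tissues, 56 for embryo over ovary, 60 for embryo over both adult somatic tissues and 57 for intestine over carcass. No member had transcripts called in opposite directions. PgR070_g049, annotated AN1-type, had differences of testis over ovary from −0.57 to 2.83 on the log2(RPKM + 1) scale over its 10 transcripts.

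Zinc finger factors that the name rule leaves out, such as Krueppel-like factors, BTB and CCCH proteins, comprised 65 genes, of which 5 were eliminated. For testis over ovary 5 of the 65 were called higher and 11 lower, beside 11.6% and 15.9% of all genes. For both gonads over both adult somatic tissues the counts were 1 and 0, beside 3.36% and 1.7%. For embryo over ovary they were 3 and 2, beside 5.34% and 4.47%. For embryo over both adult somatic tissues they were 12 and 0, beside 12.4% and 1.18%. For intestine over carcass they were 3 and 1, beside 4.97% and 7.19%. The 5 eliminated genes of the 65 were 3 AN1-like and 2 CCCH type genes. PgE193_g003, AN1-like, had 191.7 RPKM in testis, 16.9 in embryo, 16.2 in ovary, 5.4 in intestine and 2.2 in carcass. The retained gene nearest in name to the KRAB and SCAN type, PgR128_g005, annotated as SCAN domain-containing, had 14.2 RPKM in testis, 43.9 in embryo, 42.1 in ovary, 9.1 in intestine and 4.4 in carcass.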

How the data were processed

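Total RNA depleted of ribosomal RNA was sequenced from 5 tissues, 1 library each, and 2 mixed libraries of 5′ ends entered as marks on transcripts. The authors deposited 1 table of 40487 transcripts of 15027 genes on 884 scaffolds. Its expression values are the authors' RPKM, written to 1 decimal, a unit inferred from steps of whole reads per transcript length. The other numbers used, from the authors' deposited table, are scaffold positions, transcript lengths and exon numbers. The submitters' processing notes name TopHat2 and Cufflinks, without versions. Not given in the sources used here are the genome build, the handling of multiply matching reads and how elimination was scored. No column of another sample was found (0). The deposited scaling decides differences between libraries, and its effect was checked, though not for the counts of peaks.

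A gene was represented by its transcript with the highest mean RPKM, which was the transcript the authors marked as best expressed in 70 of 104 members. Differences were taken on log2(RPKM + 1), a scale that understates the change of low genes. A call needed 4-fold and 5 RPKM, and no p-value was computed with 1 library per tissue. Reads per value were recovered from depth and length for exact Poisson 95% intervals and for the level of 3 reads, which cover counting error only. The calling code was tested on simulated data. Annotation text defined members and classes, and annotations are carried over by similarity; 4416 genes are hypothetical or uncharacterized. The elimination mark is that of the representing transcript. No strand is given for 6 members.

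All eliminated members are named. Retained members named are, per comparison, the 5 called with the largest difference in each direction, per tissue the 4 highest, the 4 with the highest lowest value, the highest sharing an eliminated member's annotation, and neighbours with the same annotation; ncl-1, unc-98, sdc-1, Elbow, Gfi-1, the PR domain genes, PgR010_g194, PgR070_g049 and genes outside the rule were chosen after their values were seen. The members and lists were chosen with earlier results of these data known. Alternatives were a pseudocount of 5, 8-fold, 2 other scalings, summed transcripts, no minimum level, marks of any transcript, and leaving out members inside an opposite-strand gene or without strand. Python 3.11.15, pandas 2.3.3, numpy 2.4.6, scipy 1.17.1 and matplotlib 3.10.9 were used.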

Additional observations from a re-analysis of the deposited data

How the results depend on the processing

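No paired analysis was possible because each tissue has 1 library. Counts of members called moved by more than 1.5 times as follows. Lower in testis than in ovary, 22 as reported, became 12 with a pseudocount of 5, 8 at 8-fold, 8 with median-of-ratios and 10 with upper-quartile scaling. Higher in both gonads, 3 as reported, became 1 with a pseudocount of 5, 5 with transcripts summed and 5 with no minimum level. Higher in embryo than in ovary, 7 as reported, became 2 with a pseudocount of 5, 3 at 8-fold and 4 with median-of-ratios scaling, and lower, 6 as reported, became 2, 0 and 2, and 2 with upper-quartile scaling. Higher in embryo than in both adult somatic tissues, 20 as reported, became 9 with a pseudocount of 5, 12 at 8-fold and 12 with median-of-ratios scaling, and lower, 0 as reported, became 1 with either scaling. Higher in intestine than in carcass, 6 as reported, became 1 with a pseudocount of 5, 1 at 8-fold, 2 with median-of-ratios and 3 with upper-quartile scaling and 11 with transcripts summed, and lower, 1 as reported, became 0 with a pseudocount of 5, 3 with either scaling and 2 with transcripts summed. Summing transcripts moved the median level of retained members to 7.9 RPKM in testis, 21.85 in embryo, 26.45 in ovary, 8.95 in intestine and 4.75 in carcass, and of eliminated members to 1.9 in embryo and 1.95 in ovary. The ovary median of eliminated members was 1.8 RPKM over members with at least 1 RPKM somewhere and 0.62 with median-of-ratios scaling, which gave retained members 7.34 in ovary and 3.73 in carcass. A larger pseudocount and a higher fold call fewer genes by construction; for the scalings the cause was not tested. The other 66 values under alternatives, those of the eliminated share and the 5′ marks among them, stayed within 1.5 times. Of the differences of single named genes under alternatives, 117 moved by more than 1.5 times as a fold, not as a log2 value, and 115 did not, and none changed sign. Depth limits short transcripts: the level of 3 reads was highest in embryo, at 1.72 RPKM for the 146 nt PgR002_g206.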
